A study of Mus musculus with 6 samples.

Results

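Of the 1834 genes in a deposited table of mouse liver RNA, 244 carried only a provisional name: 184 had a symbol made of Gm and a number, and 60 had a RIKEN clone name ending in Rik. They were taken by the form of the symbol alone, with no measured value. Split by the GENCODE M21 annotation, 31 were protein coding, 92 were long non-coding RNA (lncRNA), 54 were pseudogenes, 62 were of the annotation's class TEC, and 5 were small RNAs. The lncRNA group held 36 intergenic (lincRNA), 35 antisense, 11 processed transcript, 8 sense intronic and 2 bidirectional promoter genes. Of the pseudogenes, 43 were plain processed pseudogenes. In RefSeq, 128 of the 244 were found, many of them only by the same symbol, which cannot show a new name. Among those found by gene identifier, 3 had another kind of name there: 2410131K14Rik is Spring1, 4931406P16Rik is Garre1 and E330009J07Rik is Dennd11. The number of members named since may be higher.

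The livers came from 2 groups of mice kept on the same diet. The control group was wild type and received an adeno-associated virus carrying green fluorescent protein (AAV-GFP, 3 libraries), and the other group received AAV-Ly6d and is labelled as overexpressing Ly6d (3 libraries). Ly6d is a small membrane protein of the Ly6 family, and the series title places the comparison in fatty liver disease. The sources used here do not give the diet, the strain, sex and age of the mice, the time after injection or the promoter of the vectors. Nothing says whether the libraries came from separate animals, so the p-values measure the spread between these libraries.

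A Gm symbol is given to a locus predicted from the genome, and a Rik symbol to a gene first seen as a cDNA clone, so the names say nothing of function. Processed pseudogenes arise when a messenger RNA is copied back into the genome; they lack introns and often remain nearly identical to the gene they came from. Antisense lncRNAs are transcribed from the strand opposite a gene, and lincRNAs from between genes. TEC loci are unspliced stretches with transcript evidence whose status the annotators left to be tested, and many lie within introns, where reads from unspliced messenger RNA also fall.

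The values were normalised read counts, and each was a whole multiple of the value of 1 read in its library. The table held 3248078 to 4359932 recovered reads per library. Normalised counts of Ly6d itself were 56.1, 9.68 and 182 in controls and 3181, 1799 and 3275 with AAV-Ly6d, in the direction of the labels. The table holds genes that already differ: its row order followed the DESeq2 p-value (Spearman rho 0.987 across genes), and the largest of these p-values was 0.0911. Counts of changed genes therefore describe this table and not the liver transcriptome. Genes were tested with limma on log2(value + 1), and "rose" or "fell" below means an adjusted p under 0.05 over all 1780 genes tested.

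AAV-GFP replicate 2 stood apart from the other libraries in these genes. It was the highest of the 6 libraries for 170 of the 244 (69.7%), against 43.2% of the other 1590 table genes. Its median ratio to the mean of AAV-GFP replicates 1 and 3 was 2.26 for the 244 and 1.06 for the other genes. Where leaving it out ended a call on a gene described below, that value is given; several members at 0 or nearly 0 in AAV-Ly6d fell under the filter without it and could not then be tested. Of the marker lists, 7 of 12 endothelial markers were in the table and all 7 fell (summed level 6653 to 10894 in AAV-GFP and 2475 to 3057 in AAV-Ly6d). Likewise 6 of 9 stellate and fibroblast markers were in the table and 5 fell (3321 to 4820 against 1014 to 2246). No Kupffer cell, lymphocyte or neutrophil marker was in the table, and 4 of 10 hepatocyte markers were, of which 3 rose. The summed level of all 4 did not follow that direction. It was 324190, 799684 and 301675 in AAV-GFP and 413805, 399256 and 373744 in AAV-Ly6d, with AAV-GFP replicate 2 highest. Among 5 erythroid markers present 2 fell, and of 6 cholangiocyte markers the only one in the table, Sox9, rose. The part of these cell types in the results below was not tested. In whole liver, fewer cells of a type and less RNA per cell cannot be told apart.

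Among the provisional genes, more fell than rose with AAV-Ly6d. Among the 213 tested, 21 rose and 69 fell, and 123 did not pass. That is 42.3% called, against 43.9% of all tested genes (15.9% called higher and 28% called lower), so the share called was near that of the whole table. The median log2 fold change was −1.33 over the tested members and −0.67 over all tested genes. Of the 213, 59 reached the filter (a value of at least 1 in 3 libraries) in all AAV-GFP libraries but not all AAV-Ly6d libraries, and 13 did so the other way round. Among these, 19 and 3 had no value of at least 1 in the other group, so the filter itself fixed their direction. Of those named below, Gm15372, Gm15779, Gm9403, Gm16485, 1700092C10Rik, Gm43360 and Gm26271 are among the 19. The 3 are Gm26606, Gm13773 and Gm2387. The normalisation bears on this split. After rescaling by median ratios, which moved the median of all tested genes from −0.67 to −0.33, 51 members rose and 57 fell. The whole table turned as well, to 36.6% of all genes called higher and 16.3% lower. Such rescaling, like the TMM scaling of edgeR, takes most genes as unchanged. That cannot be assumed in a table of genes that already differ, so these fits cannot decide the direction. DESeq2 on the recovered reads gave 28 that rose and 83 that fell (24.6% and 37.5% of all genes), and edgeR with TMM scaling gave 46 and 42 (51.6% of all genes called in either direction). Of the 90 called by limma, 59 were also called by DESeq2 and 54 by edgeR. Groups did not overlap for 158 of the 213, a lower share than the 84.5% of all tested genes. The remaining 31 members were too low to test, with means of 2.16 to 5.63, and each of them was highest in AAV-GFP replicate 2.

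Without AAV-GFP replicate 2, 14 members rose and 12 fell of 187 tested, against 34.9% of all genes called, and the median was −0.64. Of the 26 genes called then, 21 were among the 90 called with all libraries, each in the same direction. Leaving out any other library cut the limma counts further. Without AAV-GFP replicate 1, 6 rose and 2 fell, and without AAV-GFP replicate 3, 4 rose and 6 fell. Without AAV-Ly6d replicate 1 none rose or fell, with 79 members at an unadjusted p under 0.05. Without AAV-Ly6d replicate 2 or 3 none rose and 1 fell, with 86 and 88 members at an unadjusted p under 0.05. Apart from the fit without AAV-GFP replicate 2, the share of all tested genes called is not given for these fits. Whether the loss of calls is particular to these members was not tested. The adjusted p-values of the 90 lay between 0.0287 and the threshold of 0.05. None passed limma when its p-values were adjusted over all 55536 annotated genes, with genes outside the table counted as not different; 157 had an unadjusted p under 0.05.

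By gene type, most of those that passed fell, as did most of all table genes that passed. Of all tested genes, 15.9% were called higher and 28% lower. In protein-coding members 4 rose and 8 fell of 31 tested (median −0.74), in lncRNAs 11 rose and 27 fell of 78 (−1.25), and in pseudogenes 6 rose and 14 fell of 47 (−1.11). No TEC locus rose and 19 fell of 54 (−1.78), and 1 small RNA fell of 3. Without AAV-GFP replicate 2 the medians were −0.39, −0.66, +0.35 and −1.16 for the protein-coding, lncRNA, pseudogene and TEC members, so the pseudogene median changed sign. Among the 20 pseudogenes of the table with an ordinary name, 6 rose and 1 fell (median 0.82). Among the 13 lncRNA genes with an ordinary name, 1 rose and 4 fell (median −1.06). The difference between types was not tested. After median ratio rescaling, 8 protein-coding members rose and 3 fell, 24 lncRNAs rose and 21 fell, and 18 pseudogenes rose and 14 fell. These 3 splits turned, as did that of the whole table (36.6% of all tested genes called higher and 16.3% lower). Among TEC loci 1 rose and 18 fell.

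**Figure D1:**
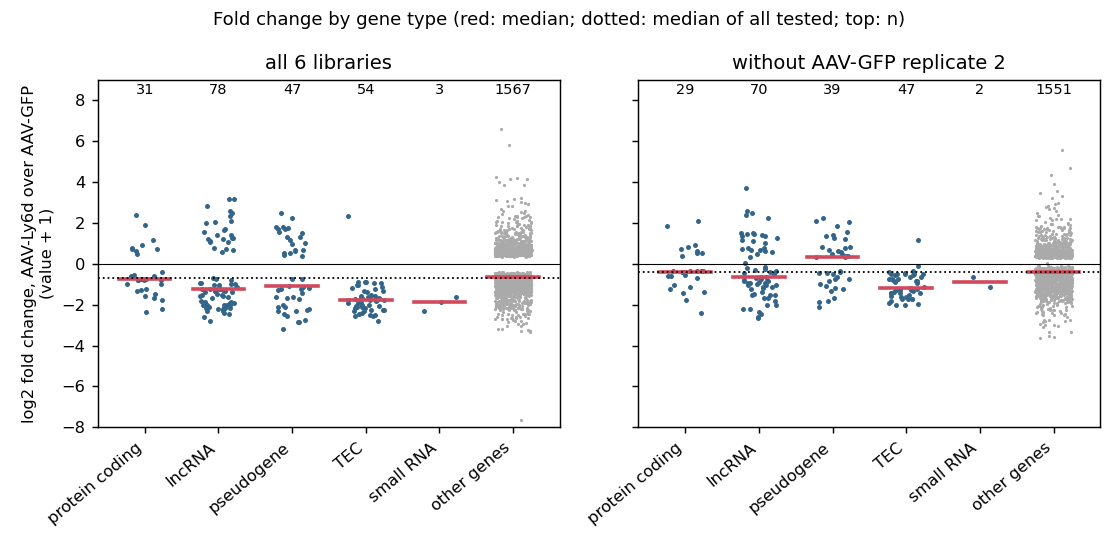
Log2 fold change (AAV-Ly6d over AAV-GFP, values + 1) of each tested gene by annotated type, with all 6 libraries (left) and without AAV-GFP replicate 2 (right). Red bars are medians, the dotted line is the median of all tested genes, and the numbers on top count the genes; the pseudogene median moves from −1.11 to 0.35 and the TEC median from −1.78 to −1.16.

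Together the 244 genes held about 1% of the normalised counts in the table. The control libraries had shares of 1.17%, 1.27% and 1.18%, and the AAV-Ly6d libraries 0.936%, 1.05% and 0.992%. The groups did not overlap (difference −0.214 percentage points; exact permutation test, two-sided, p = 0.1, the smallest that 3 against 3 libraries can give). The sums of their normalised counts overlapped, at 36888, 46917 and 34353 in AAV-GFP and 39667, 41772 and 41397 in AAV-Ly6d. The whole table summed to 2910354 to 3704294 in AAV-GFP and 3977210 to 4238206 in AAV-Ly6d. The lower share therefore does not show a lower sum. As shares, protein-coding members held 0.603% ± 0.0758 for the controls against 0.401% ± 0.0297 (SD, n = 3). Pseudogenes held 0.376% ± 0.0635 and 0.435% ± 0.0885, and those groups overlapped. By mean share, protein-coding members were the largest type in AAV-GFP and pseudogenes in AAV-Ly6d. The latter rested on AAV-Ly6d replicate 2, where pseudogenes held 0.534% and protein-coding members 0.367%. In AAV-Ly6d replicates 1 and 3 protein-coding members held more (0.42% and 0.416%, against 0.365% and 0.405%).

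The sequence stretches below show how nearly some members match a named gene. Each member is set beside the named gene it was copied from, over 90 bases of the coding sequence that hold the most mismatches; capitals mark the bases that differ. Transcripts are from GENCODE M21, and each line runs 5′ to 3′ in the direction of the named gene's messenger RNA. Gm5424 lies at chr10:62071123-62072362, Gm10156 at chr7:107863039-107863500, Gm4786 at chr17:16557246-16558043 and Gm15779 at chr6:149003915-149004326, all on the + strand, and Gm15500 at chr7:114705217-114706235 on the − strand (mm10).
Gm5424: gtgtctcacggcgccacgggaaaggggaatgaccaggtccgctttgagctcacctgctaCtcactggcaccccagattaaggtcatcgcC
Ass1: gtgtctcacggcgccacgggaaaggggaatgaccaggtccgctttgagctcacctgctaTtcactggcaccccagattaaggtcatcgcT
Gm10156: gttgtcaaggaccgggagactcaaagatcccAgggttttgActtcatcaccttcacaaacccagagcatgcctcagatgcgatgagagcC
Rbm3: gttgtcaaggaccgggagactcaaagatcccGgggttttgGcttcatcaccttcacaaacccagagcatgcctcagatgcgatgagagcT
Gm4786: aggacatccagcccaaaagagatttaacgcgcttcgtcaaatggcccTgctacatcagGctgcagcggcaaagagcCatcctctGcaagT
Rpl7a: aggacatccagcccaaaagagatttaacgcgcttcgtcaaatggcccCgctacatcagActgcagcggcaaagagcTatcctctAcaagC
Gm15779: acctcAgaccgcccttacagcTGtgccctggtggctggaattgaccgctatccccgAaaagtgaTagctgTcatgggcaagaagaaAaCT
Rpl27: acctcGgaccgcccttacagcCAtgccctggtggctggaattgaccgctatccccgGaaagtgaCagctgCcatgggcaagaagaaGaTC
Gm15500 and Rpl5: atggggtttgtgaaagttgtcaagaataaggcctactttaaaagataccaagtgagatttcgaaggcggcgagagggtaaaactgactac

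In these windows Gm5424 differed from Ass1 at 2 bases, Gm10156 from Rbm3 at 3, Gm4786 from Rpl7a at 5 and Gm15779 from Rpl27 at 9, while Gm15500 and Rpl5 were the same over their whole match. Of all 50-base windows of the transcript, 76.5% in Gm5424, 99.9% in Gm15500 and 11.8% in Gm15779 also occurred in another transcript. The sources used here do not say how reads with several matches were counted, so the levels of such copies are uncertain. Of the 244, 51 were counted as copies of a named protein-coding gene by sequence (at least 50% of the transcript matched at 80% identity or more, on either strand). Of these, 40 were pseudogenes. The antisense lncRNA Gm10501 met this rule only by matching the opposite strand of Hspa1a (85.5% identity), and it stays in the counts of copies below. In 39 members at least 50% of all 50-base windows also occurred in another annotated transcript, and in 103 no window did.

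Of the 28 copies at 98% identity or more, 21 had a positive log2 fold change. Gm5424, a processed pseudogene of Ass1 at 99.5% identity, was the most abundant of the 244, both as a level and per kilobase of transcript. Ass1 makes argininosuccinate synthase, an enzyme of the urea cycle. Gm5424 was 8042, 6389.6 and 6623 in AAV-GFP and 9604, 14247 and 9421 in AAV-Ly6d, and every AAV-Ly6d library was above every control. The rise was 0.64 on the log2 scale (SE 0.22, limma adjusted p = 0.048). Without AAV-GFP replicate 2 its change was 0.58 and the call was lost (adjusted p = 0.0642). Ass1 itself rose by 0.77 (SE 0.26, adjusted p = 0.0469).

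Gm4737, annotated as protein coding on chromosome 16 and 99.7% identical to Ahcy, was second in level. Ahcy makes the enzyme that hydrolyses S-adenosylhomocysteine. Gm4737 was 4131, 3971 and 3121 in AAV-GFP and 5248, 4844 and 5384 in AAV-Ly6d. Its log2 fold change of 0.47 (SE 0.18) did not pass with limma (adjusted p = 0.0551), and passed without AAV-GFP replicate 2 (0.52, adjusted p = 0.0458). Gm10123, a copy of the cyclophilin gene Ppia whose matched stretch is identical to it, was second per kilobase, at 1247 ± 129.8 and 1648 ± 179 (SD, n = 3); its log2 fold change of 0.40 did not pass either (adjusted p = 0.0655). Neither Ahcy nor Ppia was in the table.

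Of 11 copies of ribosomal protein genes, all tested, 10 had a positive log2 fold change, as did 39.3% of all tested genes. Of the 11, 5 rose and 1 fell, beside 15.9% of all tested genes called higher and 28% lower. Gm2387, with no AAV-GFP read, and Gm15779, with no AAV-Ly6d read, reached the filter only through the other group. Their direction was therefore fixed by the filter. The 5 that rose were Gm4786, Gm2387, Gm13408, Gm10076 and Gm11361, copies of Rpl7a, Rpl10, Rps3a1, Rpl41 and Rps18. Gm4786 was 17.4, 7.53 and 18.6 in AAV-GFP and 60.3, 59.8 and 34.8 in AAV-Ly6d (log2 fold change 1.81, SE 0.46, adjusted p = 0.0351). Gm11361 had the tightest groups, at 69.5 ± 7.1 and 117 ± 7.34 (log2 fold change 0.74, adjusted p = 0.0491). Gm10076 was at 1.46 and did not pass without AAV-GFP replicate 2 (adjusted p = 0.0565), and the other 4 did. Gm2387 had no read in any AAV-GFP library and was 2.92, 3.99 and 4.35 in AAV-Ly6d. Against a floor of 3 reads over the control group it was at least 3.94-fold higher.

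The copy that fell, Gm15779, lies within an intron of another gene on the opposite strand. It was 4.84, 9.68 and 5.06 in AAV-GFP and had no read in AAV-Ly6d, at least 6.42-fold lower against the same floor, while Rpl27, the gene it matches at 94.4%, rose by 0.47 (adjusted p = 0.0493). Another Rpl7a copy, Gm5854, showed how far AAV-GFP replicate 2 could depart: it was 207, 31.2 and 252 in AAV-GFP and 375, 339 and 351 in AAV-Ly6d. Its log2 fold change of 1.58 did not pass with all libraries (adjusted p = 0.0655) and was 0.63 without replicate 2 (adjusted p = 0.0413).

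The median log2 fold change was 0.65 over the 28 copies at 98% identity or more and −1.33 over the 18 tested copies below 98%, of which 4 had a positive value. Without AAV-GFP replicate 2 the medians were 0.58 and −0.75. The 98% limit was chosen after the data had been seen, and the relation is given as a description across genes, which are not independent. In all, 10 copies rose and 9 fell of 46 tested, a share near the 43.9% called over all tested genes. The named gene was itself in the table for 13 copies, and both were tested in 12 pairs. The signs were the same in 9 pairs, and in 9 of the 10 pairs at 98% identity or more.

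Gm15500 and Rpl5, the large-subunit protein of the printed pair, changed by 0.65 and 0.56 (adjusted p = 0.0626 and 0.0562). Gm5182 and Acaca, the acetyl-CoA carboxylase gene of fatty acid synthesis, were both lower, at −0.73 (adjusted p = 0.0607) and −0.92 (adjusted p = 0.046). Gm10156 rose more than its relative Rbm3, a cold-induced RNA-binding protein gene: 16.4, 14 and 14.3 became 48.6, 38.9 and 29.4 (log2 fold change 1.30, SE 0.36, adjusted p = 0.0404), while Rbm3 rose by 0.66. The 3 pairs of opposite sign were Gm15779 with Rpl27, Gm5276 with the glycolytic gene Aldoa (−1.43 and 0.84, at 91.8% identity) and Gm13123 with Gcn1l1 (1.68 and −0.70, at 99.4%). In the last 2 neither gene passed. The difference within a pair was not tested.

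**Figure D2:**
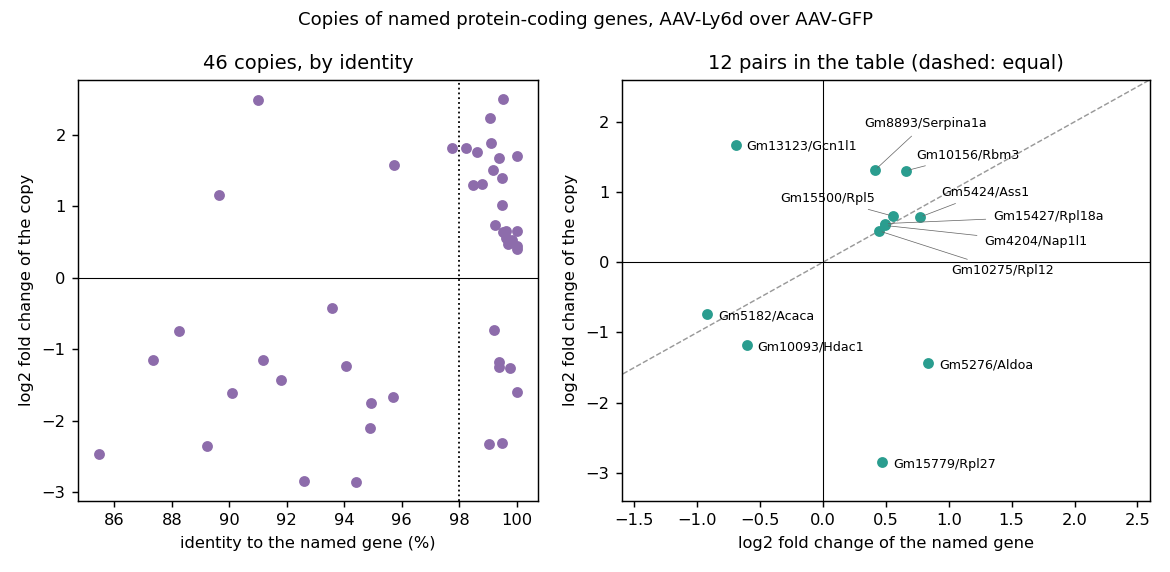
Left: log2 fold change of each of the 46 tested copies against its percent identity to the named protein-coding gene, with a dotted line at 98%; right: log2 fold change of the copy against that of the named gene for the 12 pairs in which both were tested. In 9 pairs both values have the same sign, and Gm13123, Gm5276 and Gm15779 lie in the opposite quadrants.

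Other pseudogenes that fell were low and uneven among controls. Gm15372, inside the Ugt1a gene complex of glucuronidation enzymes, fell most: 5.81, 34.4 and 5.06 in AAV-GFP against 0, 0.997 and 0 (log2 fold change −3.17, SE 0.80, adjusted p = 0.0351). Gm3325, a relative of the zinc finger gene Zfp808, was 7.74, 28 and 3.38 against 1.94, 0 and 0 (−2.85, adjusted p = 0.0409). Gm9403 was 2.9, 8.61 and 6.75 in AAV-GFP with no read in AAV-Ly6d, at least 5.99-fold lower. Gm15372 and Gm9403 reached the filter only through AAV-GFP, so the filter fixed their direction. Gm15372, Gm3325 and Gm9403 were all highest in AAV-GFP replicate 2. Among those that rose, Gm43442, a copy of Sppl3, was 0.968, 0 and 6.75 against 12.6, 7.97 and 21.8 (2.50, adjusted p = 0.0453). Gm43442 (1.85, adjusted p = 0.0703) and Gm3325 (−2.11, adjusted p = 0.0604) did not pass without that library. A second Ugt locus, on chromosome 5, held 3 members in 1 place. There Gm7652 (−1.61, adjusted p = 0.0435) and the TEC locus Gm42796 inside it (−2.09, adjusted p = 0.043) fell, and Gm21049 was at −1.15 (adjusted p = 0.136). Both calls were lost without AAV-GFP replicate 2 (−1.22, adjusted p = 0.0688, and −1.64, adjusted p = 0.0732). Gm7652 and Gm21049 match Ugt2a1 and Ugt2b36 at 90.1% and 91.2%.

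After Gm4737, the next 2 protein-coding members in level had lower means with AAV-Ly6d, and highest in AAV-GFP replicate 2. 2610507B11Rik is the mouse form of the gene also called Bltp2 and 4932438A13Rik that of Bltp1; both encode bridge-like lipid transfer proteins. 2610507B11Rik was 4213, 9022 and 3817 in AAV-GFP and 3705, 2581 and 3351 in AAV-Ly6d, so the lowest control was close to the highest treated library. Its log2 fold change was −0.73 (SE 0.33, adjusted p = 0.07) and −0.34 without replicate 2. 4932438A13Rik was 1656, 3521 and 1697 against 1339.5, 1176 and 1258, at −0.77 (adjusted p = 0.0562) and −0.42 without replicate 2 (adjusted p = 0.0444). 4931406P16Rik (Garre1, a Rac and RhoG effector) fell, from 249.6, 324 and 189 to 149, 152 and 134 (−0.77, SE 0.26, adjusted p = 0.048), and was at −0.58 without replicate 2, where it did not pass (adjusted p = 0.0592). E330009J07Rik (Dennd11, a DENN domain gene) was 355 ± 199 and 186 ± 9.47 (SD, n = 3) and did not pass (adjusted p = 0.0697).

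2410131K14Rik (Spring1) rose. Its product helps activate the SREBP transcription factors that drive sterol and fatty acid synthesis. It was 114, 91.5 and 124 in AAV-GFP and 191, 210.3 and 159.9 in AAV-Ly6d (log2 fold change 0.76, SE 0.25, adjusted p = 0.0464), and 0.64 without AAV-GFP replicate 2, where it did not pass (adjusted p = 0.0514). The largest rise of a protein-coding member was in A930018P22Rik, which was 0.968, 0 and 4.22 against 12.6, 6.98 and 13.1 (2.41, adjusted p = 0.0409). Gm3839, 99.1% identical to the glycolytic gene Gapdh over the matched part, rose from 82.2, 54.9 and 14.3 to 118, 189 and 157 (1.88, adjusted p = 0.0436). Neither passed without AAV-GFP replicate 2, at 1.85 for A930018P22Rik (adjusted p = 0.0528) and 2.09 for Gm3839 (adjusted p = 0.0508).

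The largest falls of protein-coding members were again at low levels. Gm14322, of the zinc finger family by its match to Zfp968, was 15.5, 9.68 and 8.44 in AAV-GFP and 2.92, 0 and 2.18 in AAV-Ly6d (−2.35, adjusted p = 0.0401). Gm16867 was even within both groups, at 16.4, 14 and 15.2 against 4.86, 2.99 and 4.35 (−1.69, SE 0.43, adjusted p = 0.0351). Gm10300 fell from 10.5 ± 4.24 to 2.76 ± 1.38 and 4430402I18Rik from 25.8 ± 8.07 to 8.9 ± 3.5 (SD, n = 3), and Gm16485 went from 4.36 ± 3.69 to no read, at least 4.29-fold lower. Gm10300 (adjusted p = 0.0781) and 4430402I18Rik (adjusted p = 0.0622) did not pass without AAV-GFP replicate 2. 9130409I23Rik overlapped between groups and did not pass (−0.80, adjusted p = 0.104).

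**Figure D3:**
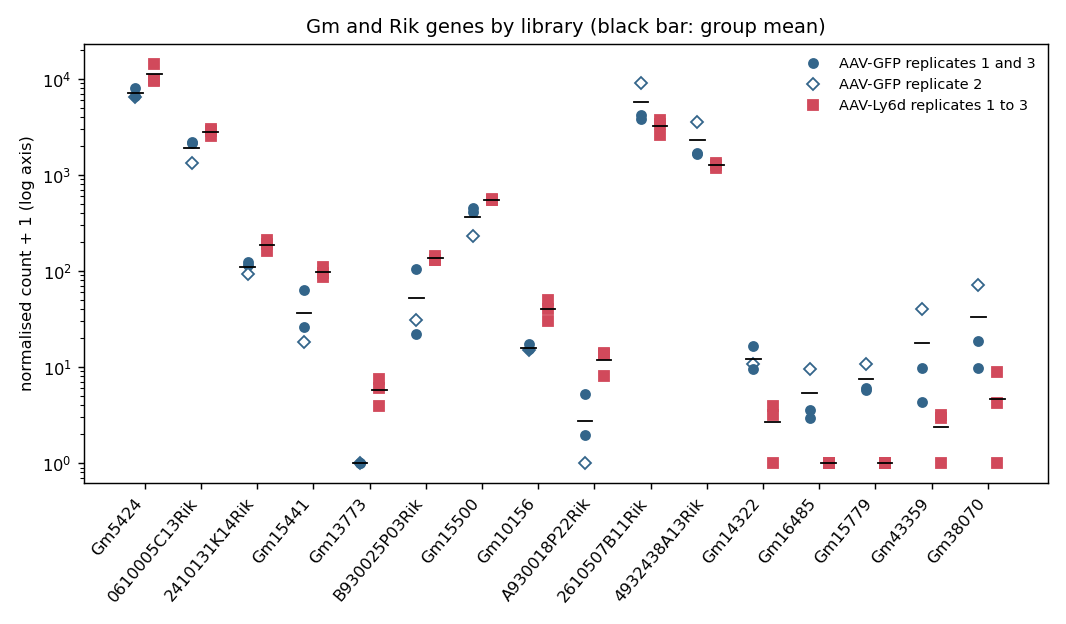
Normalised count + 1 (log axis) of 16 provisional genes in each library; circles and open diamonds are AAV-GFP, squares AAV-Ly6d, and black bars the group means. In 2610507B11Rik, 4932438A13Rik, Gm43359 and Gm38070 the open diamond of AAV-GFP replicate 2 lies above every other point, while in Gm5424 and 2410131K14Rik all squares lie above all controls.

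Among lncRNAs, 0610005C13Rik was by far the most abundant, with means of 1899.9 ± 489 and 2789.7 ± 246 (SD, n = 3). It was 2149, 1336 and 2214 in the controls and 2872, 2513 and 2984 with AAV-Ly6d, and did not pass (log2 fold change 0.59, SE 0.23, adjusted p = 0.0574). Its exons overlap 622 bases of Bcat2, on the opposite strand; Bcat2 makes the mitochondrial branched-chain aminotransferase and rose by 0.67 (adjusted p = 0.0462). No source gives the strand setting of the counting, so reads of such antisense pairs cannot be told apart. Gm15441, antisense to Txnip, a regulator of glucose uptake and redox state, rose from 62.9, 17.2 and 25.3 to 109.8, 84.7 and 94.7 (1.63, SE 0.48, adjusted p = 0.041), and did not pass without AAV-GFP replicate 2 (1.24, adjusted p = 0.0528). Txnip was not in the table.

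Members with a table gene on the opposite strand had the same sign as that gene in 2 of 5 tested pairs with exon overlap and in 3 of 4 without; Gm7652 and Gm42796, each other's partner, count as 2 of those 4. Both values of Gm28857 and AA986860 were higher (1.25 and 1.66, adjusted p = 0.0477 and 0.0485). In contrast 4933431G14Rik, on the opposite strand within an intron of St3gal5, the gene of GM3 ganglioside synthase, fell from 40.6, 88.2 and 41.3 to 28.2, 17.9 and 21.8 (−1.21, adjusted p = 0.0491). St3gal5 rose by 1.27 (adjusted p = 0.0347). The call on 4933431G14Rik was lost without AAV-GFP replicate 2 (−0.85, adjusted p = 0.072). In 1700112D23Rik and the glucose transporter gene Slc2a2 both values were negative (−1.97 and −0.93) and neither passed (adjusted p = 0.0561 and 0.0531). Of the 35 antisense members, 29 were tested, with 2 that rose and 9 that fell (median −1.24). Of all tested genes, 15.9% were called higher and 28% lower. Leaving out AAV-GFP replicate 2, 2 rose and 1 fell (median −0.68), against 16.3% and 18.6% of all tested genes. After median ratio rescaling 6 rose and 6 fell, where 36.6% of all tested genes were called higher and 16.3% lower.

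The largest rise of any member that passed was in the lincRNA Gm17767, at 5.81, 0 and 5.91 in AAV-GFP and 44.7, 38.9 and 17.4 in AAV-Ly6d (3.16, SE 0.82, adjusted p = 0.0366). E230001N04Rik followed, at 0.968, 7.53 and 0 against 19.4, 17.9 and 14.1 (2.82, adjusted p = 0.0401). Both also passed without AAV-GFP replicate 2, at 2.23 and 3.68. Gm26606 and Gm13773 had no read in any control, and were at least 5.31-fold and 5.05-fold higher. Gm13773 starts within 2 kb of Mup1, a major urinary protein gene made in hepatocytes, and runs the other way. It was 2.92, 4.98 and 6.53 in AAV-Ly6d; Mup1 was 69.7, 32.3 and 29.5 in the controls and 206, 51.8 and 246 with AAV-Ly6d (1.74, adjusted p = 0.0503). Part of Gm13773 also matches Mup4 at 91% identity. Gm16283 rose by 2.05 (adjusted p = 0.0462), from 1.81 ± 1.58 to 9.28 ± 3.32, and did not pass without AAV-GFP replicate 2 (1.42, adjusted p = 0.0579).

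The lncRNAs that fell most included 1700023H06Rik, opposite to Arrdc3, an arrestin-family gene. It was 43.5, 50.6 and 22.8 in AAV-GFP and 8.75, 6.98 and 2.18 in AAV-Ly6d (−2.60, SE 0.56, adjusted p = 0.0324), and −2.38 without AAV-GFP replicate 2 (adjusted p = 0.0411). 1700092C10Rik went from 4.84, 8.61 and 5.06 to no read, at least 6.07-fold lower. Gm10501, antisense to the heat shock gene Hspa1l, was 12.6, 6.46 and 2.53 against 0, 0 and 1.09 (−2.47, adjusted p = 0.0405). Gm26613, Gm1600 and Gm16116 fell by 2.40, 2.33 and 2.29 on the log2 scale, with adjusted p = 0.0414 for each. The calls of Gm10501 (−2.44, adjusted p = 0.0524) and Gm26613 (adjusted p = 0.0667) were lost without AAV-GFP replicate 2.

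A group of 3 lncRNAs lies with neighbours within 50 kb of each other on chromosome 8, where Irs2, an insulin receptor substrate gene, is the only protein-coding gene within 200 kb and was not in the table. B930025P03Rik rose from 104, 30.1 and 21.1 to 130.3, 129.6 and 144 (1.70, SE 0.55, adjusted p = 0.0446). Gm32540 was 12.6, 4.3 and 6.75 against 10.7, 32.9 and 26.1 (1.42, adjusted p = 0.0595), and 4833411C07Rik was 241, 131 and 113 against 244, 224 and 327 (0.77, adjusted p = 0.0637). Only B930025P03Rik passed, and without AAV-GFP replicate 2 it was at 1.49 and did not (adjusted p = 0.0736). All 3 had a positive change with and without that library. Their promoters are printed because the 3 neighbours were higher together (RefSeq, GRCm38.p6, around the start, in the direction of the gene). Capitals mark CCAAT or its reverse complement ATTGG.
B930025P03Rik, chr8:10882405-10882704, − strand: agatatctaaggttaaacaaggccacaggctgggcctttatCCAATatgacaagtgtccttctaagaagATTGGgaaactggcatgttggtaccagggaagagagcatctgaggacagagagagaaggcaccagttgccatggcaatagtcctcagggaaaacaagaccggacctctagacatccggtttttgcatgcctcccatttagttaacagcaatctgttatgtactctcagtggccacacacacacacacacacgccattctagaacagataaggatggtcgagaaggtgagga
Gm32540, chr8:10866228-10866527, − strand: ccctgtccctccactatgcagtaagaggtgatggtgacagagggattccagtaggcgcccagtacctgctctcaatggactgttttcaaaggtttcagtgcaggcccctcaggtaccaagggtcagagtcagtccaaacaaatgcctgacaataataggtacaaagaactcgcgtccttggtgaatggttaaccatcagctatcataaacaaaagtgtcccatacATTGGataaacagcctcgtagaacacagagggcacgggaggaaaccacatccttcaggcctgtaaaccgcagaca
4833411C07Rik, chr8:10899672-10899971, + strand: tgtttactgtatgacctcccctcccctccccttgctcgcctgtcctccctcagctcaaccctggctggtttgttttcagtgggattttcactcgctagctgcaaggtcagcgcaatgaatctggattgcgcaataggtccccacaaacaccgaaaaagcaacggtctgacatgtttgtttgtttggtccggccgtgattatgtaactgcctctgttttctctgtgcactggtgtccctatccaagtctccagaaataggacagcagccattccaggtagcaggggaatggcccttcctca

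B930025P03Rik held CCAAT in this window on each strand, Gm32540 held it on 1 strand and 4833411C07Rik did not hold it. Over all members, 63 genes had 104 RefSeq promoters, so some genes count more than once. CCAAT, on either strand, occurred in 26.9% of them and in 37.4% of all 32851 RefSeq promoters. TATAAA, the TATA box letters, occurred in 22.1% against 13.6%. CACGTG, an E-box, occurred in 4.81% against 7.15%, and TGACGTCA, the full CRE, in 2.88% against 1.79%. The palindromic HNF1 motif was also searched and occurred in none of them, against 0.00913% of all RefSeq promoters. It is too rare for its absence from 104 promoters to be read. These are matches of letters and say nothing of binding.

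By group mean, 61 of the 62 were lower with AAV-Ly6d, and 53 of the 54 tested had a negative log2 fold change. All 62 had a single exon, and 46 lay within an intron of another gene on the same strand. Their sum was 865, 3074 and 843 in AAV-GFP and 474, 419 and 466 in AAV-Ly6d. Against the mean of AAV-GFP replicates 1 and 3 alone, replicate 2 was 3.60-fold and the AAV-Ly6d mean 0.53-fold. Replicate 2 was the highest library in 58 of the 62 loci (93.5%). Without it 2 TEC loci fell of 47 tested, and 60 of the 62 stayed lower by group mean. The only TEC locus with a positive value was Gm43197, at 12.6, 0 and 9.28 against 29.2, 19.9 and 28.3 (2.35, adjusted p = 0.0582).

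**Figure D4:**
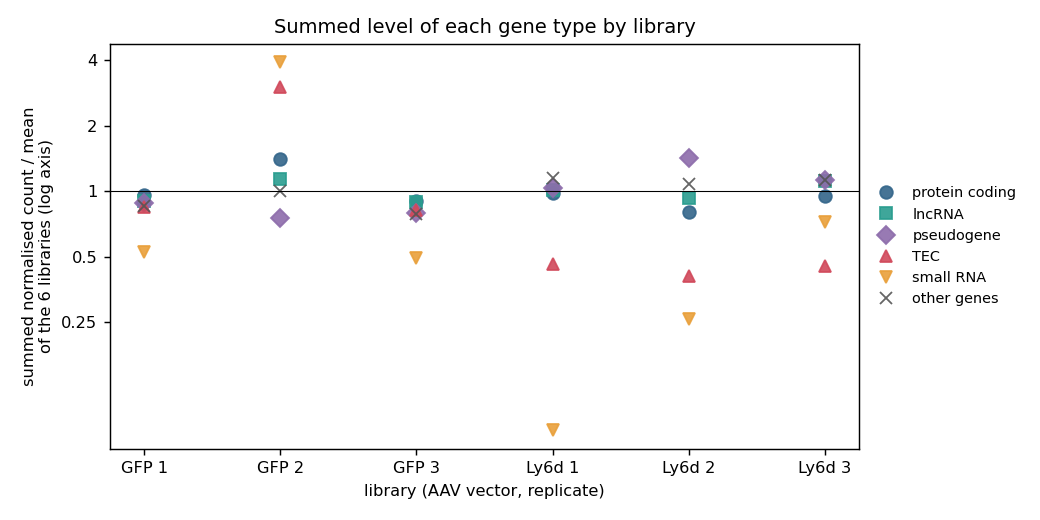
Summed normalised count of each gene type in each library, divided by the mean of that type over the 6 libraries (log axis). TEC loci and small RNAs stand highest in AAV-GFP replicate 2, and the TEC sum is 474, 419 and 466 in the AAV-Ly6d libraries against 865 and 843 in AAV-GFP replicates 1 and 3.

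The TEC examples that follow were chosen after their values were seen. Gm38357, inside Noct, the circadian gene for nocturnin, was 98.7, 360.5 and 36.3 in AAV-GFP and 36, 22.9 and 12 in AAV-Ly6d (−2.29, SE 0.79, adjusted p = 0.0491). Noct changed by −0.72 (adjusted p = 0.0561). Gm38070, inside the interleukin-1 receptor gene Il1r1, was 8.71, 71 and 17.7 against 7.78, 0 and 3.26 (−2.82, adjusted p = 0.0493), while Il1r1 was at 0.72 (adjusted p = 0.196). Both TEC loci failed to pass without AAV-GFP replicate 2, at −1.43 and −2.01.

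Atp2a2, the calcium pump gene of the endoplasmic reticulum, holds 3 TEC loci. Gm43359 was 8.71, 38.7 and 3.38 against 1.94, 0 and 2.18 (−2.50, adjusted p = 0.0503). Gm43360 was 5.81, 3.23 and 7.59 against 0, 0.997 and 0 (−2.32, adjusted p = 0.0382), with AAV-GFP replicate 2 the lowest control. It reached the filter only through AAV-GFP, so the filter fixed its direction. Gm43361, on the other strand, was at −2.54 (adjusted p = 0.0713). Atp2a2 itself was at 0.42 (adjusted p = 0.0677).

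The host gene was in the table for 14 members inside a same-strand intron, and both were tested in 12 of these pairs. The signs were the same in 6 of the 12. The medians were −2.23 for the members and −0.04 for the hosts. In AAV-GFP replicate 2, relative to the mean of replicates 1 and 3, Gm43359 was 6.41-fold and Atp2a2 0.863-fold, Gm38070 was 5.37-fold and Il1r1 0.676-fold, and Gm38357 was 5.34-fold and Noct 0.765-fold. In these 3 pairs, chosen after their values were seen, the intronic locus was raised in that library and the host gene was not. Gm43360 was not raised there (0.482-fold).

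The members were also grouped by their place relative to other annotated genes. Of the 62 placed inside a same-strand intron, 54 were highest in AAV-GFP replicate 2 (87.1%), as were 33 of 38 inside an opposite-strand intron (86.8%) and 48 of 66 with exon overlap (72.7%). Of the 65 that overlap no other gene, 26 were (40%), near the 43.2% of ordinary genes. The median log2 fold change was −1.74, −1.72, −1.21 and −0.10 in the same order. Without AAV-GFP replicate 2 it was −0.80, −0.95, −0.66 and +0.38. Among the members that overlap no gene, 13 rose and 16 fell of 62 tested. Of all tested genes, 15.9% were called higher and 28% lower. Without AAV-GFP replicate 2 the split turned to 6 and 4 of 56 tested, against 16.3% of all genes called higher and 18.6% lower. After median ratio rescaling it was 30 and 13, and the whole table turned too, to 36.6% and 16.3%. The cause of the difference between places was not tested.

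**Figure D5:**
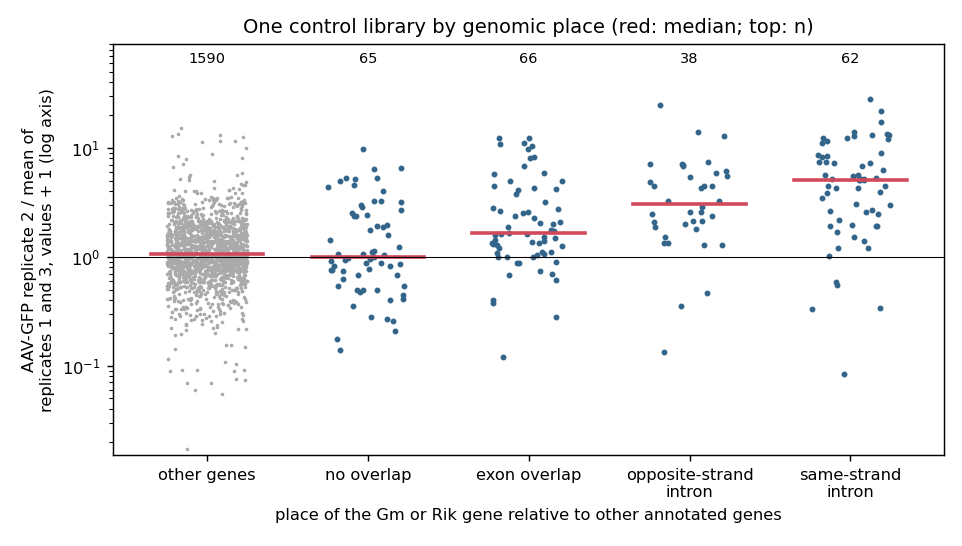
Ratio of AAV-GFP replicate 2 to the mean of AAV-GFP replicates 1 and 3 (values + 1, log axis) for each gene, by the place of the provisional gene relative to other annotated genes; red bars are medians and the numbers on top count the genes. The median is 1.06 for ordinary genes, 1 with no overlap, 1.64 with exon overlap, 3.06 in opposite-strand introns and 5.07 in same-strand introns.

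All 5 small RNAs were highest in AAV-GFP replicate 2. Gm24270, a predicted microRNA locus inside Peak1, was 32.9, 229 and 27 in AAV-GFP and 5.83, 18.9 and 52.2 in AAV-Ly6d, and did not pass (−1.64, adjusted p = 0.131). The small nuclear RNA Gm26271 was 1.94, 14 and 1.69 with no read in AAV-Ly6d, at least 5.78-fold lower. Whether these reads come from mature small RNAs was not tested.

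Low levels bear on the counts above. Of the 132 members with a mean of at least 10, all were tested, and 14 rose and 24 fell (median −0.88, and −0.44 without AAV-GFP replicate 2). Among all 1618 table genes at that level, 41.3% were called and the median was −0.63. The 30 pseudogenes at that level had a median of 0.54 (0.38 without that library), with 3 that rose and 3 that fell. The 24 TEC loci had a median of −1.34 (−0.74 without it), with none that rose and 5 that fell. No read was counted in any AAV-GFP library for 3 members, and in any AAV-Ly6d library for 35; 34 of these 35 were highest in AAV-GFP replicate 2.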

How the data were processed

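The submitters' processing notes name Bowtie 0.12.2 and mm10, without their roles. The authors deposited a signal, normalised read counts for 1834 genes in 6 mouse liver libraries; no source used here gives the counter, strand setting or annotation. Every value was a whole number of steps within 0.001 in each library. Members were found by symbol and typed with GENCODE M21; copies were sought with BLAST 2.17.0. Values of at least 1 in 3 libraries were kept, and log2(value + 1) was fitted with limma 3.58.1 (R 4.3.3) and Benjamini-Hochberg adjustment. On simulated data of 1834 genes limma called 52 of 100 genes simulated with a 2-fold and 93 of 100 with a 4-fold change. There were 4 false calls among 1634 unchanged genes. The simulation used a dispersion of 0.05 for every gene, left most genes unchanged and held no library that stood apart. The table differs in this, so these figures do not give the error rates of limma on it. edgeR 4.0.16 and DESeq2 1.42.0 on the recovered reads were added after the data had been seen. Members and lists were chosen with earlier results of these data known. Named members were, by type, those past the threshold with groups apart and the largest rise or fall, those of highest mean or mean per kilobase, and 20 background symbols, of which 4 were in the table; others named were chosen after their values were seen. Counting intervals and floors cover counting error only.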

Additional observations from a re-analysis of the deposited data

How the results depend on the processing

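With all libraries 21 members rose and 69 fell: 12 protein coding, 38 lncRNA and 20 pseudogene members were called, and the median was −1.33. Leaving out 1 library gave 0 to 14 that rose, 0 to 12 that fell, 0 to 5, 0 to 13 and 0 to 6 called of the 3 types, and medians of −1.41 to −0.64. Of these fits, only that without AAV-GFP replicate 2 has its share of all genes called given above. The fit with the replicate block gave 0, 1, 0, 1 and 0 (138 members at an unadjusted p under 0.05); same-numbered libraries did not deviate together (correlations −0.02, −0.05 and −0.06), so they share only a number. A filter of 10 gave 13 and 24 (lncRNA 17, pseudogenes 6, median −0.79), a pseudocount of 5 gave 38 that fell (lncRNA 25, pseudogenes 13), and median ratio rescaling gave 51 that rose and 32 pseudogenes. edgeR with TMM gave 46 and 42, and edgeR with the deposited scaling 3 and 10 (0, 6 and 6 by type, median −1.85). DESeq2 called 19 protein coding members, 28 and 83 in all, with a median of −1.96. For limma a threshold of 0.01, and adjustment over the whole annotation, left 0 in each count, although 157 members had an unadjusted p under 0.05. Of 38 named members none changed sign in any fit. With all libraries 31 of them were called and 7 were not, so only the 31 could lose a call. Of the 31, 30 lost the call under the replicate block and 9 with DESeq2. Without AAV-GFP replicate 2, 33 named members were testable, the 7 included, and 13 lost the call. The 31 members not tested had means of 2.16 to 5.63, a few reads per library.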
